A study of Mus musculus with 16 samples.

Results

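The Period genes Per1, Per2 and Per3, Ciart, the PAR bZIP genes Dbp, Tef and Hlf, the bZIP repressor gene Nfil3 and the DEC genes Bhlhe40 and Bhlhe41 were followed in skeletal muscle and cortical bone of aged mice. The 10 genes were chosen by name, with earlier results of these data known, as part of the negative limb and output factors of the circadian clock. The cryptochromes and the nuclear receptors of the clock were not in this group. All 10 were found among the 21011 genes measured in skeletal muscle and the 38933 genes measured in cortical bone. The 16 RNA-seq libraries came from female C57BL/6 mice that were 18 months old at the start. In each tissue 4 mice had received BAY2416964 (BAY), an antagonist of the aryl hydrocarbon receptor (AhR), and 4 had received vehicle (VEH), a mixture of ethanol, Solutol and water. Gavage with 30 mg/kg BAY, or with vehicle alone, went on for 8 weeks, 5 days in each week, and every mouse was kept on a light cycle of 12 hours on and 12 hours off and carried calcein labels. Muscle RNA was from 1 tibialis anterior per mouse, so that fibres and all other cells of the muscle were pooled. Bone RNA was from shafts left after marrow stromal cells had been isolated, which were digested with collagenase. The time of day at which each mouse was sampled was not given in the sources used here, and neither was whether muscle and bone libraries with the same replicate number came from the same mouse.

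In the mammalian clock, the activators BMAL1 (gene Arntl) and CLOCK bind E-boxes and drive transcription of the Period genes and Ciart, whose proteins then repress those activators. The same activators drive Dbp, Tef and Hlf, which bind D-boxes as activators, while NFIL3 (E4BP4) competes for D-boxes as a repressor, and the DEC proteins compete for E-boxes. In most peripheral tissues, muscle included, transcripts of this group rise and fall once a day in a fixed order, and Per1 and Per2 also respond acutely to glucocorticoids and to immediate early signals.

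The sequences just upstream of the start sites are shown first for the Period genes and Ciart, because these 4 genes had the smallest P values of the group in muscle. Each stretch is the 250 bases before the start of the GENCODE canonical transcript, read 5′ to 3′ on the gene's strand from GRCm39, and capitals mark E-boxes (CACGTG) and D-boxes (TTATGTAA or TTACGTAA). The stretches lie at chr3:95789557-95789806 on the minus strand for Ciart, chr11:68989018-68989267 on the plus strand for Per1, chr1:91387047-91387296 on the minus strand for Per2 and chr4:151129141-151129390 on the minus strand for Per3. By GENCODE, the Ciart and Per1 stretches lie inside the bounds of their genes, because other transcripts of both start further upstream. The Per3 stretch lies wholly upstream of its gene, and the Per2 stretch partly overlaps its gene's bounds.
Ciart: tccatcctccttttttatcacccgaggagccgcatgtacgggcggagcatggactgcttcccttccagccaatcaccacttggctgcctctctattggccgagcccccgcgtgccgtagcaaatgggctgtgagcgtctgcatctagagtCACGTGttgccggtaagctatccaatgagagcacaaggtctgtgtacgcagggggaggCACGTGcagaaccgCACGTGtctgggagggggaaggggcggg
Per1: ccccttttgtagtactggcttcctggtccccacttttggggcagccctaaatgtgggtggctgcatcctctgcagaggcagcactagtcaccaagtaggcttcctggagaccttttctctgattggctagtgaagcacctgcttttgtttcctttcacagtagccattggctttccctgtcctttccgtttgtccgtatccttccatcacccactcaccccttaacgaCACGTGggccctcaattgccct
Per2: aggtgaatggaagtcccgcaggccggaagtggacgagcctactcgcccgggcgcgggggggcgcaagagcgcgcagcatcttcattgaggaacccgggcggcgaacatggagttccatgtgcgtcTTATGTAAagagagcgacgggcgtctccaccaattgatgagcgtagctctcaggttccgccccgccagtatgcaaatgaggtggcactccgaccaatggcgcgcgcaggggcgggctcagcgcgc
Per3: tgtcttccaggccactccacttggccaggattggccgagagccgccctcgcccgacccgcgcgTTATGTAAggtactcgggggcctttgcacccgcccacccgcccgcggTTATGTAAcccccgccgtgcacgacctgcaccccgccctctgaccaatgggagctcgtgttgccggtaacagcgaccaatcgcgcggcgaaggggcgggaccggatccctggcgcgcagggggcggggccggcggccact

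Ciart carried 3 E-boxes, which began 100, 42 and 28 bases before the start site. Per1 carried 1, which began 22 bases before it. Per2 held a D-box 125 bases before the start, and Per3 held D-boxes 187 and 140 bases before it. In the full window, which also took in 50 bases after the start site, E-boxes were found in 5 of the 10 genes (Per1, Ciart, Tef, Bhlhe40 and Bhlhe41) and in 7.81% of 21770 promoters of the same length. D-boxes were found in 2 of the 10 genes and in 1.07% of promoters. The E'-box CACGTT was found in Per2, 6 bases into the transcript, and in 4.99% of promoters. The cAMP response element TGACGTCA was found in Hlf and in 2.44% of promoters. The xenobiotic response element TNGCGTG, which AhR is known to bind, was found in Tef and Hlf and in 6.07% of promoters, and not in the windows of the other 8 genes. Both strands were searched, no 2 matches in these genes overlapped, and a match is a run of letters, not evidence of binding.

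The muscle libraries held 6134348 to 9261444 reads on genes and the bone libraries 930678 to 6949495, and CPM values (counts scaled to the same total in every library) were used for levels. A count of 3 reads stood for 0.324 to 0.489 CPM in muscle and 0.432 to 3.22 CPM in bone. Every one of the 10 genes had at least 14 reads in each muscle library and at least 7 in each bone library. The column of muscle VEH replicate 3 carries a word for replacement, and in that library the adipocyte markers summed to 94.9 CPM against 1.24 to 5.59 CPM in the other 7, with all 5 markers in the table. It also had the highest sums of osteoblast and osteocyte markers (149 against 22.3 to 45.3 CPM, 4 of 10 in the table), osteoclast markers (7.13 against 0.421 to 1.39 CPM, 3 of 3) and Schwann cell markers (37.1 against 12.8 to 20.9 CPM, 3 of 3). Muscle fibre markers, 7 of 7 in the table, summed to 225689 to 330781 CPM in VEH and 272597 to 333143 CPM in BAY muscle, while the 6 neutrophil and myeloid markers were not in the muscle table. In bulk tissue, a lower level can come from fewer cells of a type or from less RNA per cell, and these cannot be told apart.

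Per unit of exon length, Bhlhe40 was the most abundant of the 10 genes in muscle, at 20.3 ± 4.16 CPM per kb (mean ± SD over all 8 mice). Dbp followed at 17.0 ± 6.81 and Tef at 17.0 ± 2.86 CPM per kb, then Per1 at 6.94 ± 3.66, Bhlhe41 at 6.94 ± 1.63 and Per3 at 4.88 ± 1.56 CPM per kb. Ciart at 2.32 ± 1.65, Nfil3 at 2.12 ± 0.322, Per2 at 1.83 ± 0.751 and Hlf at 1.06 ± 0.206 CPM per kb were the least abundant. The ranges over mice overlapped between all neighbours in this order except Tef, with a lowest value of 13.5 CPM per kb, and Per1, with a highest value of 11.97 CPM per kb. From the lowest to the highest mouse, Ciart spanned 7.77-fold, Per1 4.03-fold, Per2 3.84-fold and Dbp 3.25-fold, against 1.62-fold for Nfil3 and Tef. The order of abundance above pools both treatments. In VEH mice alone, mean Tef (14.9 CPM per kb) was above Dbp (12.2) and Bhlhe41 (5.69) above Per1 (4.12). There Ciart (0.999) was below Nfil3 (2.06) and Per2 (1.23).

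In skeletal muscle, all 10 genes had a higher mean log2 value in BAY, by a median of 0.64 against 0.06 over all genes of the table, 55.2% of which were higher (57.5% of the 13170 genes that averaged at least 1 CPM). Ciart, Per1 and Per2 rose past the study's thresholds, an unadjusted P value under 0.05 with a fold change of at least 2, in limma on the deposited log2 values. Across all genes, 1.33% were higher by these thresholds and 2.43% passed in either direction, and 0.911% were higher among genes averaging at least 1 CPM. Per3, Dbp, Bhlhe41, Tef and Bhlhe40 had unadjusted P values under 0.05 with smaller changes, which makes 8 of 10 genes where 6.71% of all genes, and 9.49% of those averaging at least 1 CPM, were higher at that P value. Hlf and Nfil3 did not pass. Because the 10 genes were chosen with earlier results of these data known, these counts are a description and not a test of the group. After Benjamini-Hochberg adjustment over the 21011 genes, limma on the deposited log2 values left no gene of the table with an adjusted P value under 0.05, and the smallest was 0.184.

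**Figure D1:**
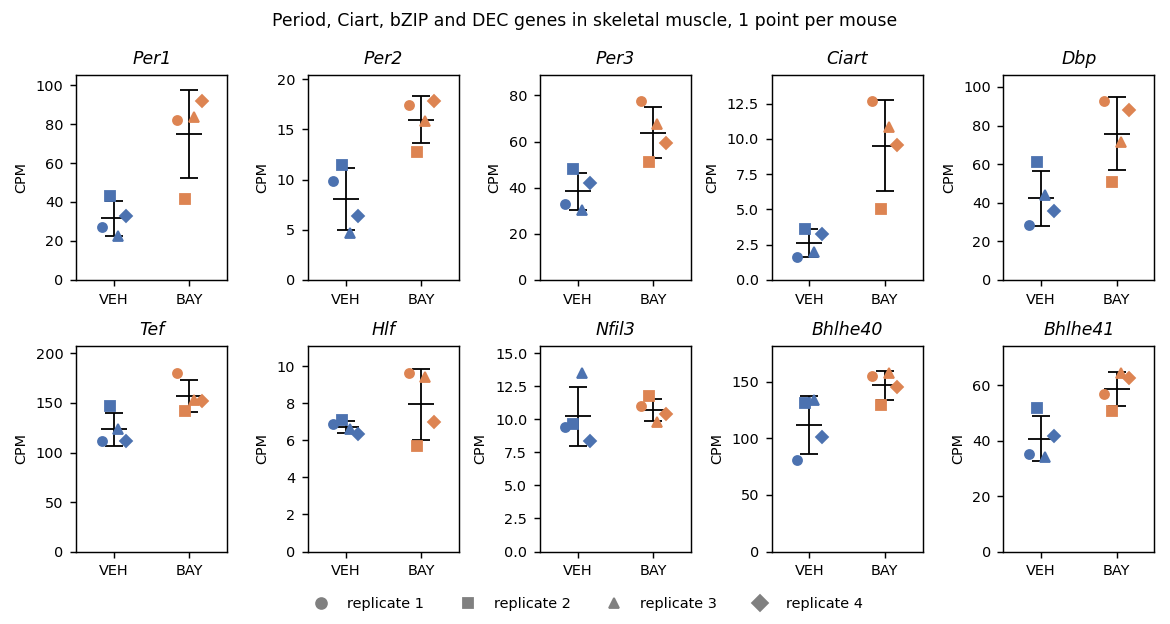
Level of each of the 10 genes in skeletal muscle (y axis, CPM) in VEH and BAY mice, with 1 point per mouse, the marker shape giving the replicate number and bars giving the mean ± SD of 4 mice. All 4 BAY mice lay above all 4 VEH mice for Per2, Per3 and Ciart, and BAY replicate 2 was the lowest BAY mouse in 9 of the 10 panels.

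Ciart (CHRONO) encodes a repressor of the BMAL1 and CLOCK activators. Its muscle level was 1.63, 3.62, 1.94 and 3.22 CPM in VEH replicates 1 to 4 and 12.7, 5.06, 10.8 and 9.54 CPM in BAY replicates 1 to 4, from 14 to 27.0 reads per VEH library and 31.0 to 92.0 per BAY library. No BAY mouse overlapped the VEH range, though BAY replicate 2 lay nearer to the highest VEH mouse than to the next BAY mouse. The mean went from 2.60 ± 0.968 to 9.52 ± 3.24 CPM (SD, n = 4 each), a log2 fold change of 1.87 with an SE of 0.33 (limma P = 6.68e-05, Benjamini-Hochberg adjusted P = 0.206, exact permutation P = 0.0286). The last is the smallest P value that 4 mice against 4 can give in a permutation of the labels. By P value Ciart was the 3rd of 21011 genes.

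Per1 encodes a core repressor of the clock that is also induced within minutes by acute signals. Its level was 27.2, 43.2, 22.8 and 32.9 CPM in VEH and 82.3, 41.7, 83.6 and 91.7 CPM in BAY muscle. Of the BAY mice, 3 were at least 82.3 CPM, well above every VEH mouse, and BAY replicate 2 fell inside the VEH range. The log2 fold change was 1.22 with an SE of 0.24 (limma P = 0.00019, adjusted P = 0.206, exact permutation P = 0.0571), and with 1 mouse left out it ranged from 1.08, without VEH replicate 3, to 1.48, without BAY replicate 2.

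Per2, a core repressor of the clock loop, stood at 9.89, 11.4, 4.64 and 6.32 CPM in VEH and 17.5, 12.7, 15.9 and 17.8 CPM in BAY muscle. The groups did not overlap. The means were 8.07 ± 3.13 and 16.0 ± 2.33 CPM (SD, n = 4 each), a ratio of 1.98, while the difference of the mean log2 values, which limma tests, was 1.06 with an SE of 0.25 (limma P = 0.000959, adjusted P = 0.275, exact permutation P = 0.0286). On the log2 scale this was just over the fold threshold, which the ratio of the means did not reach. The log2 fold change was 0.82 without VEH replicate 3, the library with a replacement, 0.97 without VEH replicate 4 and 0.96 on a scale of log2(CPM + 1). Per3, the third Period gene, with a minor part in the core loop, was at 33.1, 48.0, 30.4 and 42.1 CPM in VEH and 77.5, 51.2, 67.7 and 59.3 CPM in BAY muscle. Its groups did not overlap either, by a narrow margin between VEH replicate 2 and BAY replicate 2. Its log2 fold change of 0.74 with an SE of 0.17 was under the fold threshold (limma P = 0.000606, adjusted P = 0.271, exact permutation P = 0.0286).

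Among the PAR bZIP genes, Dbp differed most. DBP is an activator of detoxification and metabolic genes with a large daily swing in its transcript. Its level was 28.5, 61.3, 44.0 and 35.6 CPM in VEH and 92.6, 50.7, 71.4 and 88.1 CPM in BAY muscle, and the groups overlapped because BAY replicate 2 was below VEH replicate 2. The log2 fold change was 0.86 with an SE of 0.23 (limma P = 0.00227, adjusted P = 0.295, exact permutation P = 0.0571). It passed the fold threshold without either of these mice, at 1.06 without VEH replicate 2 and 1.04 without BAY replicate 2.

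Tef, whose protein binds the same D-boxes as DBP, was at 111, 147, 124 and 112 CPM in VEH and 180, 142, 153 and 152 CPM in BAY muscle, with VEH replicate 2 above BAY replicate 2. The log2 fold change was 0.35 with an SE of 0.13 (limma P = 0.018, adjusted P = 0.409, exact permutation P = 0.0571), and its limma P value was over 0.05 without VEH replicate 1 (0.052), VEH replicate 4 (0.0533) or BAY replicate 1 (0.0692). Hlf, the third PAR bZIP activator, was at 6.32 to 7.11 CPM in VEH and 5.71 to 9.63 CPM in BAY muscle. The BAY range took in the whole VEH range, and the log2 fold change was 0.21, with a 95% interval of -0.22 to 0.64 (limma P = 0.317, exact permutation P = 0.343).

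Nfil3, the repressor at D-boxes, ranged from 8.35 to 13.5 CPM in VEH and from 9.80 to 11.7 CPM in BAY muscle. Its log2 fold change was 0.09, with a 95% interval of -0.29 to 0.47 (limma P = 0.612, exact permutation P = 0.571). It was 0.23 without VEH replicate 3, the library with the replacement and the highest Nfil3 value, and 0.0016 without VEH replicate 4. Among the DEC genes, whose proteins repress at E-boxes, Bhlhe41 (DEC2) was at 35.3, 52.0, 34.2 and 41.5 CPM in VEH and 56.9, 50.6, 64.4 and 62.6 CPM in BAY muscle. BAY replicate 2 was the only BAY mouse not above the VEH range, and the log2 fold change was 0.54 with an SE of 0.15 (limma P = 0.0027, adjusted P = 0.298, exact permutation P = 0.0571). Bhlhe40 (DEC1) was at 80.4, 131, 134 and 101 CPM in VEH and 155, 129, 158 and 145 CPM in BAY muscle. Its log2 fold change was 0.42 with an SE of 0.16 (limma P = 0.0202, adjusted P = 0.426, exact permutation P = 0.0857), and its limma P value was over 0.05 without VEH replicate 1 (0.0758), VEH replicate 4 (0.0531), BAY replicate 1 (0.0554) or BAY replicate 3 (0.0587).

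**Figure D2:**
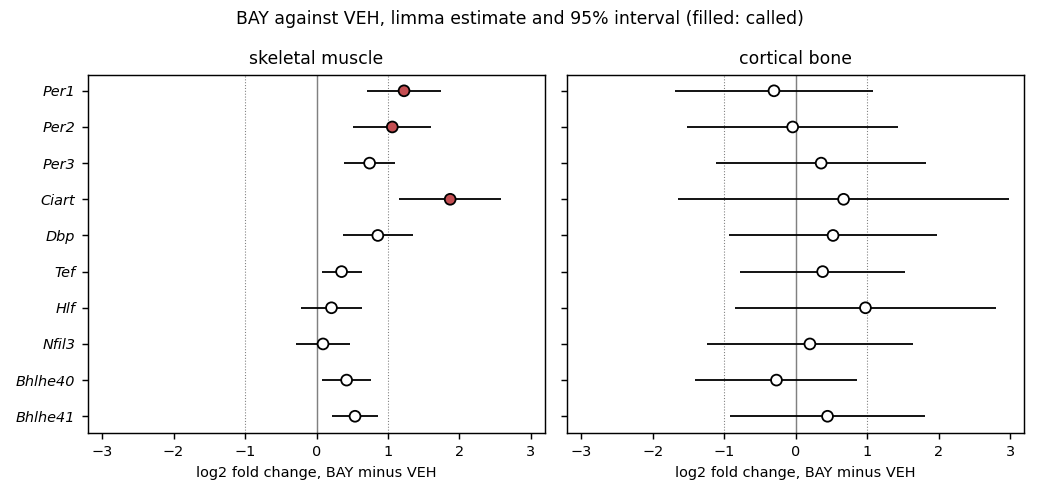
Log2 fold change of BAY over VEH for each of the 10 genes (limma estimate with its 95% interval, n = 4 mice per group) in skeletal muscle and cortical bone. In muscle 8 intervals lie wholly above 0, from Ciart at 1.87 to Tef at 0.35, and in bone all 10 intervals include 0.

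Per2, Per3 and Ciart were the 3 of 10 genes whose muscle groups did not overlap, all with BAY higher, where 4.2% of all genes had that pattern and 5.15% of those averaging at least 1 CPM. With limma voom on reads recovered from the steps in the values, a setting closer to the study's own, Per1, Per2 and Ciart were again the genes past both thresholds, where 2.33% of all genes were higher by these thresholds. In that fit the Benjamini-Hochberg adjusted P value was 0.014 for Per1, with a log2 fold change of 1.24, and 0.014 for Ciart, with one of 1.90, and 0.119% of all genes had an adjusted P value under 0.05. The adjusted P value was 0.0661 for Per2, 0.0673 for Per3 and 0.0823 for Dbp.

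Of the 15 other clock genes examined, which included the activators, the cryptochromes, the nuclear receptors of the second loop, casein kinases and Timeless, 8 were higher and 7 lower in BAY muscle. Their median log2 fold change was 0.04, and none passed both thresholds. Arntl, which in most tissues peaks when the Period genes are low, was at 15.02, 15.06, 18.6 and 10.4 CPM in VEH and 10.5, 12.9, 8.77 and 12.5 CPM in BAY muscle, a log2 fold change of -0.39 with an SE of 0.19 (limma P = 0.0655, exact permutation P = 0.171). Nr1d1, which encodes the repressor REV-ERB alpha and like Dbp is an E-box target, was at 89.4, 124, 154 and 91.2 CPM in VEH and 129, 114, 142 and 128 CPM in BAY muscle (log2 fold change 0.20, limma P = 0.252, exact permutation P = 0.343). VEH and BAY values overlapped for both genes.

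Genes known to respond to the acute signals that also induce Per1 were read beside the group. Of 12 immediate early genes, 11 were higher and 1 lower in BAY muscle, at a median of 0.83 on the log2 scale. Past both thresholds 4 rose, where 1.33% of all genes did. At an unadjusted limma P value under 0.05, 7 were higher, where 6.71% of all genes were. The 4 were Fos at 2.04, Junb at 1.40, Nr4a1 at 1.38 and Egr1 at 1.27 on the log2 scale, all transcription factors of the first response to a stimulus. Fos was at 1.63, 1.53, 2.81 and 0.596 CPM in VEH and 7.71, 2.12, 9.80 and 7.43 CPM in BAY muscle. Its groups overlapped, and it had at most 26.0 reads in a VEH library and 13.0 in BAY replicate 2. Egr1 also overlapped, at 1.86 to 7.99 CPM in VEH and 5.54 to 20.6 CPM in BAY muscle. Nr4a1 was at 34.6, 65.4, 48.5 and 44.5 CPM in VEH and 140, 80.4, 155 and 128 CPM in BAY muscle, with no overlap and with the lowest BAY value in replicate 2, as for Per1. Junb, Jun and Dusp1 did not overlap between the groups either, with log2 fold changes of 0.55 for Jun and 0.79 for Dusp1. That made 4 of the 12 genes higher without overlap, where 4.2% of all genes had that pattern. Of 10 genes induced by glucocorticoids, 7 were higher and 3 lower, with a median of 0.14, and 4 were higher and 1 lower at an unadjusted limma P value under 0.05. Across all genes 6.71% were higher and 3.07% lower at that P value. Zbtb16, at 0.71, and Foxo1, at 0.44, were higher without overlap, as were 4.2% of all genes. Pdk4, which restrains glucose oxidation, fell by 1.31 and was the 1 gene of that list past both thresholds, where 1.09% of all genes were lower. Pdk4 was at 68.2, 94.2, 204 and 116 CPM in VEH and 57.5, 28.4, 51.1 and 48.5 CPM in BAY muscle, with its highest value in VEH replicate 3, the library with the replacement. What part such signals had in the levels of the Period genes was not tested.

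The same mice tended to be high or low for most of the group. In VEH muscle replicate 2 was the highest mouse for 8 of the 10 genes, and in BAY muscle replicate 2 was the lowest for 9 of 10, Nfil3 being the exception. BAY replicate 1 was the highest of all 8 mice for 5 of the 10 genes. Log2 values of the 45 pairs of genes were correlated over the 8 mice with exact permutation tests. Because the treatments differed, deviations of each mouse from its own group mean were also correlated, with permutations within the groups.

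Of the 45 pairs in muscle, 39 had a positive and 6 a negative Pearson r, the 6 all with Nfil3, and the median r was 0.78. Of these, 23 had a Benjamini-Hochberg adjusted P value under 0.05 over the 45 pairs, and all 23 were positive. These values hold the treatment difference as well as variation between mice. With group means removed, 38 of 45 pairs stayed positive and the median r was 0.57, but 8 had an exact permutation P value under 0.05 and none passed the adjustment. The 23 pairs were all positive after group means were removed, but they had been picked by their r over the same 8 mice. Without BAY replicate 1 the count of 23 pairs became 15.

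Per3 and Ciart were the closest pair, with an r of 0.93 and a Spearman rho of 0.93 on deviations from group means (exact permutation P = 0.00694 and 0.0104, Benjamini-Hochberg adjusted P = 0.156 for r, n = 8 mice). Without the 2 mice farthest from the median of Per3 the r was 0.95. Dbp and Tef, the PAR bZIP pair, had an r of 0.89 and a rho of 0.93 on these deviations (exact permutation P = 0.0156 and 0.00868, adjusted P = 0.208 for r), and 0.80 without the 2 farthest mice. Per1 and Bhlhe41 had an r of 0.86 and a rho of 0.93 on deviations (exact permutation P = 0.00521 and 0.00347, adjusted P = 0.156 for r), and 0.91 without the 2 farthest mice. Against Arntl, 9 of the 10 genes had a negative r over the 8 muscle libraries, and none passed the adjustment over the 10. These values also hold the treatment difference. With group means removed, the r was 0.07 for Dbp, 0.105 for Tef, 0.14 for Bhlhe40 and 0.81 for Nfil3. The others stayed negative, from -0.15 for Per2 to -0.615 for Per3. Against the summed muscle fibre markers all 10 had a positive r, with a median of 0.66, from 0.04 for Nfil3 to 0.84 for Dbp. None passed the adjustment, and the part of the fibre share in these levels was not tested.

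**Figure D3:**
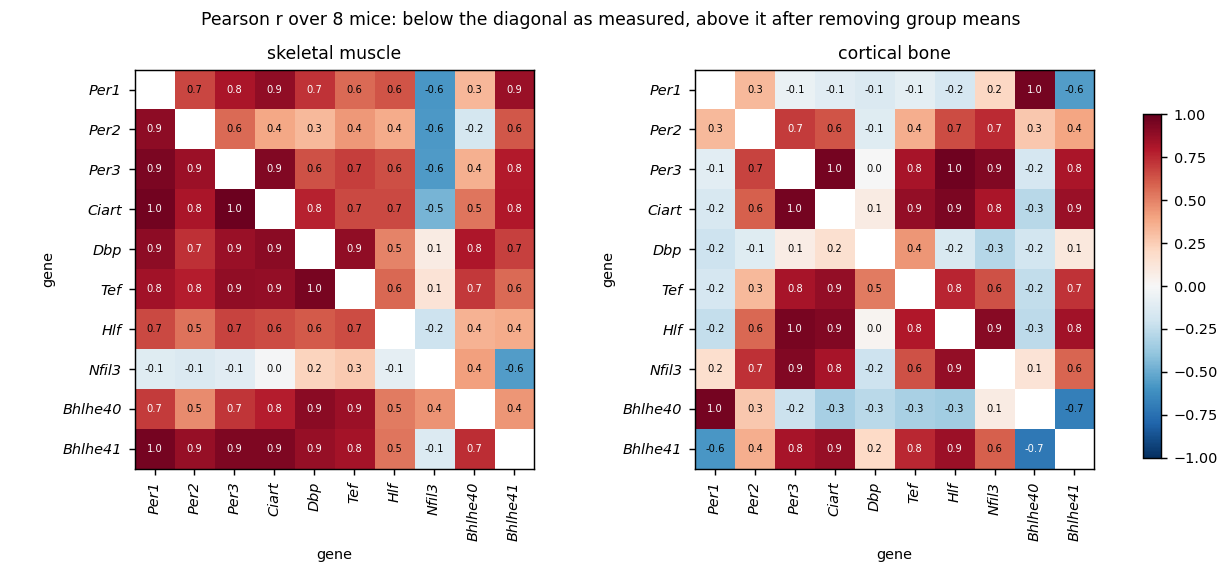
Pearson r of log2 values for each pair of the 10 genes, in skeletal muscle and cortical bone, over 8 mice, below the diagonal on the values themselves and above it after group means were removed (colour scale from -1 to 1). Below the diagonal 39 of 45 pairs are positive in muscle, where all negative pairs hold Nfil3, and 31 of 45 in bone.

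Outside the group, the protein coding genes most like Ciart over the 8 muscle libraries were Tab1 (r = 0.99), Crocc (0.99) and Ncoa3 (0.98), and those most like Dbp were Zc3h4 (0.99), Nfatc2 (0.99) and Bicral (0.98). For Per2 they were Pde4c (0.97), Ppp1r13b (0.95) and Gramd1a (0.95), and for Nfil3 Smdt1 (0.96), Npepl1 (0.95) and Syngr1 (0.95). These were picked as the highest of 7562 genes averaging at least 5 CPM, and they are a description over 8 libraries of 2 treatment groups. An r of at least 0.9 was reached by 210 genes for Ciart, 244 for Dbp, 46 for Per2 and 28 for Nfil3.

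In cortical bone none of the 10 genes passed the thresholds and all 10 overlapped between the groups. No P value of the 10 was under 0.05, adjusted or not, in limma or in limma voom. Across all bone genes 0.64% passed both thresholds in limma and 3.68% in voom, and 0.354% were higher and 0.0514% lower in BAY without overlap. By mean log2 value 7 of the 10 genes were higher and 3 lower in BAY, at a median of 0.37 on the log2 scale against 0.84 over all genes of the table, 80.9% of which were higher. When each library was centred on its median gene, 1 of the 10, Hlf, was above 0 and 9 were below, the lowest being Per1 at -1.16, Bhlhe40 at -1.12 and Per2 at -0.89. The smallest adjusted P value of any bone gene was 0.887 (limma, Benjamini-Hochberg). The change in bone was not tested against the change in muscle, because the 2 tables were normalised separately.

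**Figure D4:**
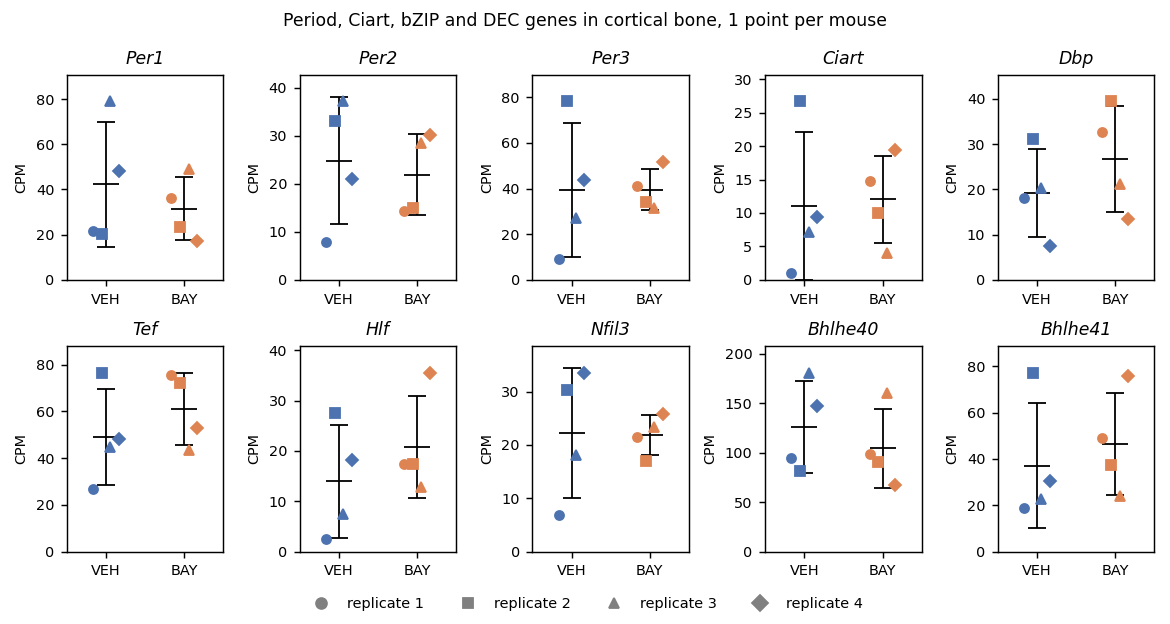
Level of each of the 10 genes in cortical bone (y axis, CPM) in VEH and BAY mice, with 1 point per mouse, the marker shape giving the replicate number and bars giving the mean ± SD of 4 mice. The groups overlap in every panel, and VEH replicate 1 is the lowest of the 8 mice for 7 genes.

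Ciart spanned 26.5-fold over the 8 bone libraries, Hlf 14.5-fold and Per3 8.50-fold. Ciart was at 1.01, 26.7, 7.09 and 9.46 CPM in VEH and 14.8, 9.93, 4.07 and 19.3 CPM in BAY bone, from 7 to 33.0 reads a library, and its lowest and highest values were both among the VEH mice. The log2 fold change of Ciart was 0.67, with a 95% interval of -1.65 to 2.98 (exact permutation P = 0.6), which holds 0 as well as the change of 1.87 seen in muscle. Hlf was at 2.45, 27.6, 7.44 and 18.2 CPM in VEH and 17.4, 17.4, 12.7 and 35.5 CPM in BAY bone, with a log2 fold change of 0.98 (95% interval -0.86 to 2.81, exact permutation P = 0.314). VEH replicate 1 was lowest and VEH replicate 2 or BAY replicate 4 was highest for both genes.

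Per1 in bone was at 21.7, 20.3, 79.0 and 48.0 CPM in VEH and 36.2, 23.6, 48.9 and 17.2 CPM in BAY mice, with a log2 fold change of -0.30 (95% interval -1.69 to 1.08, exact permutation P = 0.629). Per2, at 7.91 to 37.2 CPM in VEH and 14.3 to 30.1 CPM in BAY bone, had a log2 fold change of -0.04 (95% interval -1.52 to 1.43), and Per3, at 9.21 to 78.3 CPM and 31.6 to 51.6 CPM, had one of 0.36 (95% interval -1.11 to 1.82). The Period genes did not follow 1 order of mice, since Per1 was highest in VEH replicate 3 and Per3 in VEH replicate 2. Dbp was at 18.1, 31.2, 20.3 and 7.52 CPM in VEH and 32.8, 39.5, 21.3 and 13.3 CPM in BAY bone, with a log2 fold change of 0.52 (95% interval -0.93 to 1.98, exact permutation P = 0.4). Tef (0.38), Nfil3 (0.20), Bhlhe41 (0.44) and Bhlhe40 (-0.27) had log2 fold changes whose 95% intervals all held 0. Per unit of exon length Bhlhe40 was the most abundant gene in bone as well, at 18.1 ± 6.54 CPM per kb, and Hlf the least, at 2.503 ± 1.52 CPM per kb (mean ± SD, n = 8).

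The bone libraries differed in what else they held. Olfactory receptor genes, known for odour detection in the nose, took 0.0513%, 2.92%, 0.544% and 2.24% of CPM in VEH replicates 1 to 4 and 1.20%, 1.03%, 1.04% and 3.52% in BAY replicates 1 to 4, against at most 0.0033% in muscle. Hlf followed this share with an r of 0.98 and a rho of 0.98 over the 8 libraries (exact permutation P = 7.44e-05 and 0.000397, adjusted P over the 10 genes 0.000744 and 0.00397). Its r was 0.91 without the 2 libraries farthest from the median share and 0.98 with group means removed. Per3 followed with an r of 0.97 and a rho of 0.95 (exact permutation P = 0.000397 and 0.00114, adjusted P = 0.00198 and 0.0057), and 0.91 without the 2 farthest. Nfil3 (r = 0.95), Ciart (r = 0.92, and 0.64 without the 2 farthest libraries) and Bhlhe41 (r = 0.76) also passed the adjustment, which makes 5 of 10 genes. The other 5 did not, with a positive r for Tef (0.75, and 0.41 without the 2 farthest libraries) and Per2 (0.69, and -0.06 without them) and a negative r for Per1 (-0.06, rho -0.48, r -0.63 without them), Dbp (-0.08) and Bhlhe40 (-0.16, rho -0.52, r -0.53 without them). How many of all bone genes followed the share was not computed, so the count of 5 of 10 describes these genes alone. With the olfactory share as a covariate, the log2 fold change of BAY was 0.30 for Hlf and 0.10 for Bhlhe41 and turned to -0.18 for Per3, -0.16 for Ciart and -0.23 for Nfil3, and none of these 5 was called.

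Markers of bone cells and of muscle fibres also varied. The 10 osteoblast and osteocyte markers, all in the table, summed to 7171, 1449, 30065 and 22217 CPM in VEH and 1957, 1683, 22008 and 2212 CPM in BAY bone. Bhlhe40 was highest in the 3 libraries with the most of these markers, at 181 and 147 CPM in VEH replicates 3 and 4 and 161 CPM in BAY replicate 3, against 67.7 to 98.3 CPM in the other 5. Its r with the summed markers was 0.91 and its rho 0.79 (exact permutation P = 0.00541 and 0.0279, adjusted P over the 10 genes 0.0541 and 0.139), and none of the 10 genes passed the adjustment. Without the 2 libraries farthest from the median the r was 0.82. The 7 muscle fibre markers summed to 353 to 23630 CPM in VEH bone and 1041 to 79218 CPM in BAY bone, and 8 of the 10 genes had a negative r with that sum. The r farthest from 0 was that of Per2, at -0.77 with a rho of -0.74 (exact permutation P = 0.0295 and 0.0458, adjusted P over the 10 genes 0.295 and 0.288), and it was -0.80 without the 2 farthest libraries and -0.86 with group means removed. Dbp had the highest r, at 0.66 (exact permutation P = 0.078, adjusted P = 0.39), and none of the 10 passed the adjustment. The part of cell makeup, or of the olfactory signal, in the bone levels was not tested.

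**Figure D5:**
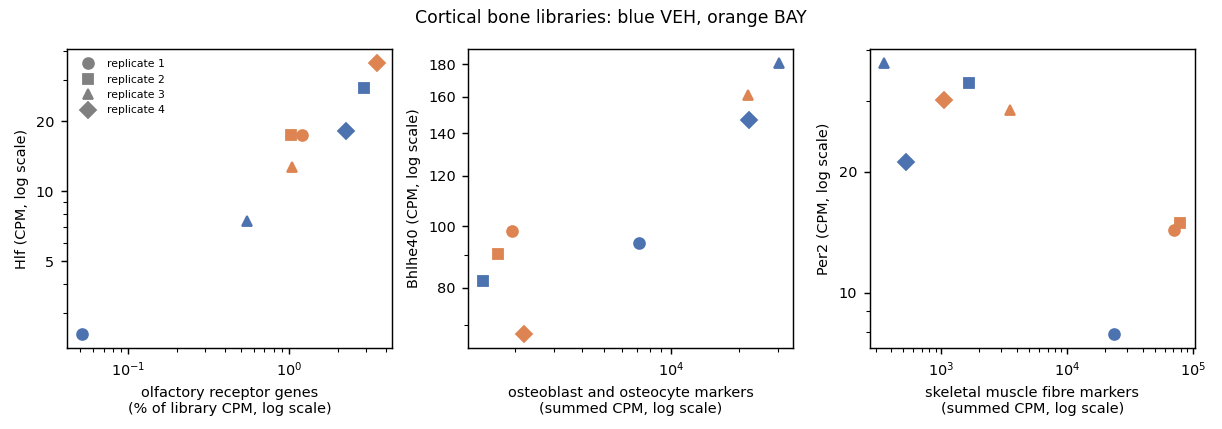
Levels in 8 cortical bone libraries (log axes) of Hlf against the share of CPM on olfactory receptor genes (%), Bhlhe40 against the summed osteoblast and osteocyte markers (CPM) and Per2 against the summed muscle fibre markers (CPM), with VEH in blue, BAY in orange and the marker shape giving the replicate number. Hlf rises with the olfactory share from 2.45 to 35.5 CPM, and Bhlhe40 is highest in the 3 libraries with the most osteoblast and osteocyte markers.

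Of the 45 pairs of genes in bone, 31 had a positive and 14 a negative r over the 8 mice, with a median of 0.33, and 9 passed the Benjamini-Hochberg adjustment over the pairs. Without VEH replicate 2 the count was 1, without BAY replicate 1 it was 4, and with each library centred on its median gene it was 25. Per1 and Bhlhe40 were 1 such pair, with an r of 0.96 and a rho of 0.98 (exact permutation P = 7.44e-05 and 0.000397, adjusted P = 0.00335 and 0.00595), 0.92 without the 2 mice farthest from the median of Per1 and 0.96 with group means removed. Per1 also had a positive r with the summed osteoblast and osteocyte markers, at 0.82 with a rho of 0.71 (exact permutation P = 0.0259 and 0.0576, adjusted P over the 10 genes 0.124 and 0.139), and 0.62 without the 2 farthest libraries. The other 8 lay within Per3, Ciart, Hlf, Tef, Nfil3 and Bhlhe41, among them Per3 with Ciart (r = 0.96, rho = 0.90, 0.78 without the 2 farthest mice) and Per3 with Hlf (r = 0.95, rho = 0.98, 0.93 without the 2 farthest mice), with exact permutation P values for r of 0.000595 and 0.000918. Of these genes, all but Tef were the ones that followed the olfactory receptor share. Dbp was in none of the 9 pairs. With group means removed 4 pairs passed the adjustment, Per1 with Bhlhe40 and the 3 pairs among Per3, Ciart and Hlf, each at an exact permutation P of 0.00174, the smallest that design can give.

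Arntl in bone was at 2.16, 58.9, 14.9 and 27.7 CPM in VEH and 38.0, 21.5, 18.3 and 53.7 CPM in BAY mice, and 6 of the 10 genes passed the adjustment for their r with it, all 6 positive, among them Per3 (r = 0.98, rho = 0.98, exact permutation P = 7.44e-05 and 0.000397) and Ciart (r = 0.97, rho = 0.95, exact permutation P = 0.000322 and 0.00114). The r without the 2 libraries farthest from the median of Arntl was 0.95 for Per3 and 0.86 for Ciart. It was 0.95 for Bhlhe41 and 0.91 for Hlf, but 0.45 for Nfil3 and 0.40 for Tef. How many of all bone genes would pass against Arntl was not computed. Arntl and the olfactory share were both lowest in VEH replicate 1 and highest in VEH replicate 2 and BAY replicate 4. In bone 4358 of 16548 genes reached an r of at least 0.9 with Ciart and 6665 with Nfil3, against 186 with Per2 and none with Dbp. The genes most like Ciart there were Mapt, Wfikkn2 and Ccnq, those most like Nfil3 were Rbm12, Bloc1s6 and Cmtm7, those most like Per2 were Bms1, Gfi1 and Ddx54, and those most like Dbp were Hspb1, Lrrc38 and Col7a1, with an r of 0.85 to 0.89 for Dbp and at least 0.98 for the others. Of the other lists in bone, the clock genes had 10 higher and 5 lower with a median of 0.22, the glucocorticoid genes 7 and 3 with 0.14 and the immediate early genes 1 and 11 with -0.52, and none passed the thresholds.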

How the data were processed

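RNA-seq was analysed for 8 skeletal muscle and 8 cortical bone libraries, 4 VEH and 4 BAY mice in each tissue, grouped by the sample labels. The authors aligned trimmed reads with STAR (version 2.7.8a in the submitters' processing notes) to mm39, assigned them to Ensembl release 104 genes by expectation maximization in Partek, scaled the counts to CPM and deposited log2 values of CPM plus an offset. The lowest values put that offset at 0.0001 in bone and 0.0004 in muscle. This method shares reads among overlapping genes, so values need not be whole, and the study's own test was limma-voom in Partek Flow.

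The value of 1 read was recovered from the steps between low CPM values, and 81.3% to 88.5% of values up to 50 reads were whole to within 0.02. Each tissue was fitted alone with limma (version 3.58.1, lmFit and eBayes with trend, two-sided) in R (version 4.3.3) on all genes, with no filter and no covariate. Adjustment was Benjamini-Hochberg, over every gene of a tissue. Calls used the study's thresholds (fold change of at least 2, P under 0.05 before adjustment). Fold changes are on the log2(CPM + offset) scale. Single genes were also compared by exact permutation of the group labels, which was added after seeing the data. Correlations used log2 values and exact two-sided permutation tests. P values measure the spread between these mice. A floor of 3 reads takes in counting error and nothing else, as PCR duplicates are not separate molecules.

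The 10 genes and all lists were chosen with earlier results of these data known. The genes named are the 10, Arntl, Nr1d1, listed genes that were called or did not overlap between the groups, and in each tissue the 3 coding genes averaging at least 5 CPM whose r with Per2, Ciart, Dbp and Nfil3 was highest. Exon lengths and start sites came from GENCODE release M39 and sequence from GRCm39. The fits were tested on simulated data. Alternatives were pseudocounts of 1 and 0.1 CPM, keeping genes that averaged at least 1 CPM, voom on recovered reads, eBayes with no trend, centring on the median, a replicate block and leaving out single mice. Covariates for olfactory receptor share and muscle fibre markers in bone were chosen after seeing the data. Other steps used Python 3.11.15 with scipy 1.17.1, pandas 2.3.3, numpy 2.4.6 and matplotlib 3.10.9. The study's proteomics and RNAscope data were not analysed here.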

Additional observations from a re-analysis of the deposited data

Results flagged for a closer look

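Per1 in skeletal muscle of BAY replicate 2 lay far below the other BAY mice, at 41.7 CPM against 82.3 to 91.7 CPM. The gap to the nearest of them took 0.862 of the whole range of the 4 mice on the log2 scale. It was the 1 such sample among 40 groups of 4 mice examined, and chance alone gives about 1 in 20 groups. The same mouse was the lowest of the BAY group for 9 of the 10 genes. No gene of the 10 moved without overlap in opposite directions in the 2 tissues.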

How the results depend on the processing

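In muscle all 10 genes stayed higher in BAY in each of the 7 other settings and the 8 fits that left out 1 mouse, down to 0.0016 for Nfil3 without VEH replicate 4. Of the 150 fold changes recomputed, 145 kept their side of the thresholds, and the exceptions were Per2 and Dbp. Per2 was under the fold threshold at 0.96 with log2(CPM + 1), 0.82 without VEH replicate 3 and 0.97 without VEH replicate 4. Dbp was over it at 1.06 without VEH replicate 2 and 1.04 without BAY replicate 2. Between 2 and 4 of the 10 genes were called when 1 mouse was left out. Of the 8 genes with an unadjusted P value under 0.05, 6 kept it without a trend. Limma adjusted P values of Per1 and Ciart moved with the setting. They were 0.0202 and 0.0179 with log2(CPM + 1), 0.00819 for both with log2(CPM + 0.1), and 0.533 and 0.45 without a trend. Genes called in muscle fell from 510 to 52 with log2(CPM + 1) and to 193 with the filter, and ranged from 448 to 567 with 1 mouse left out. The count of correlated pairs ranged from 15 to 24.

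In bone none of the 10 genes was called in any of these settings. Median centring turned Per3 (-0.49), Ciart (-0.18), Dbp (-0.33), Tef (-0.47), Nfil3 (-0.65) and Bhlhe41 (-0.41), and took Per1 to -1.16, Bhlhe40 to -1.12, Per2 to -0.89 and Hlf to 0.13. The olfactory share as a covariate turned Per3 (-0.18), Ciart (-0.16) and Nfil3 (-0.23), and Per2 turned to 0.17 with voom and to 0.65 with muscle fibre markers as a covariate. Voom also took Ciart to 1.31, Per3 to 0.76, Nfil3 to 0.55 and Hlf to 1.48, while Per1 stayed below 0 at -0.18 and Bhlhe40 at -0.22. With 1 mouse left out, the fold changes ranged from -0.58 to 0.074 for Per1, -0.52 to 0.23 for Per2, -0.22 to 0.81 for Per3, -0.23 to 1.35 for Ciart, -0.29 to 0.47 for Nfil3, 0.31 to 1.47 for Hlf, 0.13 to 0.82 for Dbp, 0.12 to 0.62 for Tef, -0.50 to -0.07 for Bhlhe40 and 0.17 to 0.88 for Bhlhe41. Genes called in bone went from 249 to 82 with the filter, 443 with centring, 408 without a trend, 1433 with voom, 496 with the olfactory covariate and 5634 with the fibre covariate, and from 115 to 1116 with 1 mouse left out, the highest without VEH replicate 2. Correlated pairs went from 9 to 25 with centring, and from 1 to 11 with 1 mouse left out. The cause was not tested.

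The labels do not say whether VEH and BAY mice of the same replicate number were paired, and the correlations given next cannot exclude it. Deviations of same-numbered VEH and BAY mice correlated at -0.10 to 0.04 in muscle and -0.08 to 0.49 in bone. Of the 8 mice, 2 matched best with their own number, replicates 3 and 4 in bone. With the replicate number as a block, 489 genes were called in muscle and 305 in bone, and 3 and 0 of the 10 genes. Bone libraries went down to 930678 reads, and the fewest reads in a bone library were 7 for Ciart, 10.3 for Dbp, 16.0 for Per1 and 17.0 for Hlf.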

Other observations

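The ratio of a Period or PAR bZIP transcript to Arntl within a library does not depend on how that library was scaled, and it is compared here between mice only. The ratio of Per2 to Arntl CPM in muscle was 0.659, 0.759, 0.25 and 0.609 in VEH replicates 1 to 4 and 1.67, 0.987, 1.81 and 1.43 in BAY replicates 1 to 4, with no overlap between the groups. The ratio of Dbp to Arntl was 1.90, 4.07, 2.37 and 3.43 in VEH and 8.85, 3.94, 8.13 and 7.06 in BAY muscle, with BAY replicate 2 inside the VEH range. In bone the ratio of Per2 to Arntl was 0.562 to 3.67 in VEH and 0.377 to 1.56 in BAY mice, and the groups overlapped. These ratios were computed after the values were seen and were not tested.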
